A study of Mus musculus with 9 samples.

Results

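The lysosomal cathepsins are the proteases that digest protein inside the lysosome, and 9 of their genes were followed here: Ctsa, Ctsb, Ctsc, Ctsd, Ctsh, Ctsk, Ctsl, Ctss and Ctsz. They were chosen by name, with earlier results of these data known, as genes whose array probes carry a RefSeq accession of these symbols. They are 9 of the 17742 genes tested and are read by 14 of the 23544 probes kept. Of these genes, 5 have 1 probe, 3 have 2 and Ctsa has 3, and the brightest probe stands for each gene. Every one of the 14 probes was well above background on all 9 arrays.

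RNA of the whole left kidney was hybridised, in 1 colour, to Agilent mouse arrays, 1 array per sample. Clip kidneys (n = 3) had the left ureter closed with a vascular clip for 2 days, a unilateral ureteral obstruction. ClipR-14 kidneys (n = 3) had the clip taken off again and were followed for 12 days. The control arm (n = 3) joins 2 sham-operated kidneys and 1 untreated kidney. All 9 samples come from male mice of 10 weeks on a mixed background. All of them, the controls included, carry the ISAM genotype (Epo-/-::3.3K-Epo3'-Tg458), in which the endogenous erythropoietin gene is absent and a transgene is present, so that no sample comes from a mouse with intact erythropoietin. The labels do not say that the samples of a group are separate mice, and p-values measure the spread between these samples. A whole kidney holds every renal cell type, and fewer cells of a type and less RNA per cell cannot be told apart in such samples.

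Cathepsins are made as inactive precursors, carried to the lysosome by mannose 6-phosphate receptors and activated by the acid that the vacuolar proton pump maintains there. Most are cysteine proteases of the papain family (Ctsb, Ctsc, Ctsh, Ctsk, Ctsl, Ctss, Ctsz). Ctsd is an aspartic protease and Ctsa a serine carboxypeptidase. In the kidney the proximal tubule is rich in lysosomes, since it takes up and degrades filtered protein. Ctss is best known from antigen-presenting cells, and Ctsk from osteoclasts and from cells that break down collagen. Cystatins and stefins are the small proteins that block the cysteine cathepsins.

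The promoters of 5 members are shown, those with a match to a CLEAR, ETS or IRF motif. Sequences are RefSeq windows on build GRCm38.p6, from 250 bases before to 50 bases after a start site, which matched 7 of the 9 members in 8 windows (Ctsb and Ctsh were not matched). The 6 motifs below were searched on both strands, and matches are in capitals. The E-box, bound by helix-loop-helix factors, is CACGTG. The core of the CLEAR element, which TFEB binds and which contains the E-box, is TCACGTGA. The ETS motif, bound by the myeloid factor PU.1 and its relatives, is GAGGAAG. The AP-1 motif holds any base between its TGA and TCA. The IRF motif, bound by interferon regulatory factors, repeats GAAA after a gap of 2 bases of any kind. The TATA motif is TATAAA. Bases are counted from 1 at the 5′ end of each window.
Ctss: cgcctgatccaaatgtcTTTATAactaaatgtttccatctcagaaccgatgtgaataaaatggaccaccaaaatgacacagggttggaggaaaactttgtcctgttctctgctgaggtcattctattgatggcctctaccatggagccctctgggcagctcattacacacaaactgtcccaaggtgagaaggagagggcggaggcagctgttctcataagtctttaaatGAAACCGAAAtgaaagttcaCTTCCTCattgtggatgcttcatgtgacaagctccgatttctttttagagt
Ctsc: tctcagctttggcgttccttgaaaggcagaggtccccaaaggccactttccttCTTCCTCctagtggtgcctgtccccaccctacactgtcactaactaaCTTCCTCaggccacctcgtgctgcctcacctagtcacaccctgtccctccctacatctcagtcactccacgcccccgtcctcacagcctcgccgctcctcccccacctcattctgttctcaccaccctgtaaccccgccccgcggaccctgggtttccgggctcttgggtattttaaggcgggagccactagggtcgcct
Ctsk: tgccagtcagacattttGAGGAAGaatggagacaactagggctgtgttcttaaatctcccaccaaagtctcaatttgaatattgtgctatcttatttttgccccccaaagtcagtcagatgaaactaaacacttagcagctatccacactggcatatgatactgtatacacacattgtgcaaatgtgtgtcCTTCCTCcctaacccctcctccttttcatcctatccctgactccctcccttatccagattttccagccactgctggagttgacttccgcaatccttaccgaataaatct
Ctsd: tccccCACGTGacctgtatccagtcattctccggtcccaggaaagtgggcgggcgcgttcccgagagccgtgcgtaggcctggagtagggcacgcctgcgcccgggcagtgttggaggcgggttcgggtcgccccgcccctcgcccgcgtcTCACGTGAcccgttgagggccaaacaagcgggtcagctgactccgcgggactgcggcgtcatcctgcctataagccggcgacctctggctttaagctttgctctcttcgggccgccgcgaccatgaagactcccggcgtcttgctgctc
Ctsa: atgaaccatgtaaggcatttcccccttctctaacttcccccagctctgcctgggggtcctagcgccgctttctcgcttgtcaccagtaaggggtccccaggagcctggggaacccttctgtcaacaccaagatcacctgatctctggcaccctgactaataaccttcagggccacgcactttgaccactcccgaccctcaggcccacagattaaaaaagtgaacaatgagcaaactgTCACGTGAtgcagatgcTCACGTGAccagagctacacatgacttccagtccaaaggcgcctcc
The windows lie at chr3:95526536-95526835 on the plus strand for Ctss, chr7:88277835-88278134 on the plus strand for Ctsc and chr3:95498960-95499259 on the plus strand for Ctsk. They lie at chr7:142387778-142388077 on the minus strand for Ctsd and chr2:164833523-164833822 on the plus strand for Ctsa, whose other window holds no match. The ETS letters stood in 3 of the 8 windows, those of Ctss, Ctsc and Ctsk, against 13.6% of all 32851 windows. The IRF letters stood in Ctss, 1 of 8 windows against 3.44% of all, with the first base at 230. The CLEAR core stood in 2 of 8 windows against 0.974% of all, in Ctsa at bases 238 and 255 and in Ctsd at base 152. The E-box stood in 3 of 8 windows against 7.15% of all, those of Ctsa, Ctsd and Ctsl. TATAAA was found in the Ctss window alone, 1 of 8 against 13.6%, and the AP-1 letters in none of the 8, against 7.81% of all. These matches describe the letters of the windows.

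After 2 days of obstruction 6 of the 9 cathepsin genes were higher in Clip than in control kidneys (Ctsb, Ctsc, Ctsd, Ctsl, Ctss, Ctsz), beside 21.4% of all genes called higher. Ctsa and Ctsh were lower, 2 of 9, beside 27.5% of all genes called lower, and Ctsk did not pass. The changes ranged from a 3.96-fold rise of Ctss to a 1.44-fold fall of Ctsh. The median log2 change of the 9 was 0.48, against -0.09 over all genes. With normexp background correction, another way to treat the background, 3 were higher (Ctsc, Ctsd and Ctss, beside 14.2% of all genes) and 1 lower (beside 17.5%). With quantile normalization the split was 6 higher and 0 lower, beside 25.6% and 22.8% of all genes. Levels below are log2 intensities relative to the 75th percentile of the same array, changes are log2 differences with the standard error (SE) of the limma fit, n = 3 per arm, and adjusted p is limma's with Benjamini-Hochberg adjustment over all genes.

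**Figure D1:**
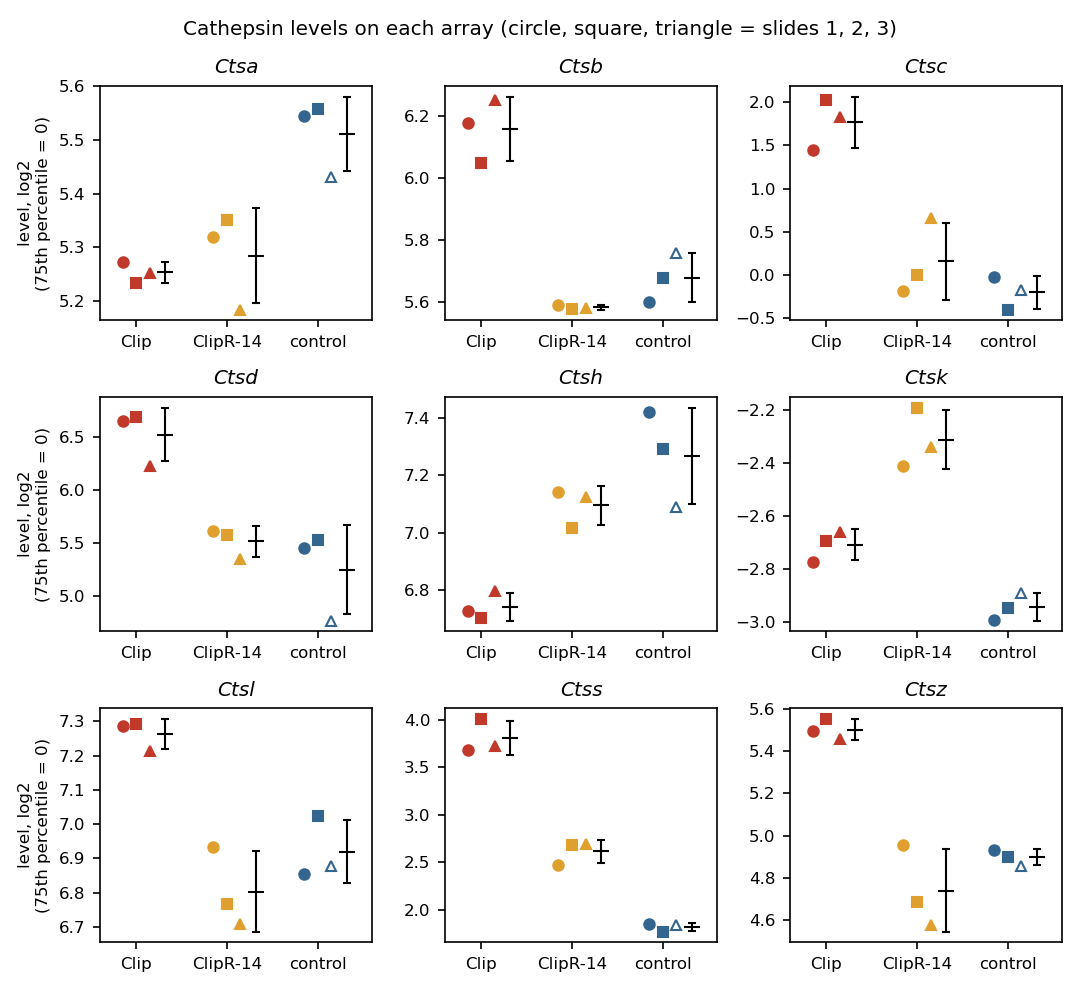
Level of each cathepsin gene on each of the 9 arrays, as log2 intensity relative to the array's 75th percentile, with Clip at the left, ClipR-14 in the middle and control at the right. Points are arrays and their shapes the 3 slides, the open triangle is the untreated kidney, and the black bars give the mean ± SD of each arm (n = 3). Each panel has its own scale, and Ctss stands at 3.68 to 4.01 in Clip, 2.47 to 2.69 in ClipR-14 and 1.77 to 1.85 in control arrays.

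Ctss, an endopeptidase that trims the invariant chain of MHC class II, read 3.68, 4.01 and 3.73 in the Clip kidneys, against 1.85 and 1.77 in the sham kidneys and 1.84 in the untreated kidney. All Clip arrays lay above all control arrays by more than the range within either arm. The change was 1.98 ± 0.11 (SE; limma adjusted p = 6.55e-06). The same difference taken within each of the 3 slides was 1.82 to 2.24. Ctsc, the dipeptidyl peptidase that activates granzymes and other granule serine proteases, read 1.45, 2.03 and 1.83 in the Clip kidneys, against -0.02, -0.41 and -0.18 in the control kidneys. The arms did not overlap, and the Clip arrays spread over a wider range than the Ctss ones did. Ctsc changed by 1.97 ± 0.24 (SE; limma adjusted p = 0.000222), or 3.93-fold.

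Ctsd, the aspartic endopeptidase that is among the most abundant lysosomal proteases, read 6.65, 6.69 and 6.23 in the Clip kidneys, against 5.45 and 5.53 in the sham kidneys and 4.77 in the untreated kidney. The slide that held the untreated kidney also held the lowest Ctsd array of the Clip and ClipR-14 arms, and the arms did not overlap. Ctsd changed by 1.27 ± 0.22 (SE; limma adjusted p = 0.00146), or 2.41-fold, and by 1.15 to 1.46 within slides. Its second probe changed by 1.39 ± 0.14.

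Ctsz, a carboxypeptidase, read 5.50, 5.55 and 5.46 in the Clip kidneys, against 4.93, 4.90 and 4.86 in the control kidneys. The change was 0.61 ± 0.11 (SE; limma adjusted p = 0.00195), or 1.52-fold, and the second Ctsz probe changed by 0.59. Ctsb, which cuts both within chains and at their ends, read 6.18, 6.05 and 6.25 in the Clip kidneys, against 5.60, 5.68 and 5.76 in the control kidneys. Ctsb changed by 0.48 ± 0.089 (SE; limma adjusted p = 0.0023), while its dimmer second probe changed by 0.29 and did not pass (limma adjusted p = 0.0733). Ctsl, an endopeptidase of broad reach, read 7.29, 7.29 and 7.21 in the Clip kidneys, against 6.85, 7.02 and 6.88 in the control kidneys. The groups did not overlap for any of these 3 genes. The Ctsl change of 0.34 ± 0.095 (SE; limma adjusted p = 0.0163) missed the threshold when sham 1, Clip 1 or Clip 2 was left out (limma adjusted p 0.0515 to 0.0527). With normexp all 3 calls were lost: Ctsz changed by 0.44 (limma adjusted p = 0.0555), Ctsb by 0.22 (limma adjusted p = 0.345) and Ctsl by 0.11 (limma adjusted p = 0.589).

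Ctsh, an aminopeptidase, was lower at 6.72, 6.70 and 6.80 in the Clip kidneys, against 7.42, 7.29 and 7.09 in the control kidneys. The change was -0.53 ± 0.10 (SE; limma adjusted p = 0.00319), and it was -0.06 with quantile normalization (limma adjusted p = 0.647). Ctsa, the protective protein that also stabilises lysosomal galactosidase and neuraminidase, read 5.27, 5.23 and 5.25 in the Clip kidneys, against 5.54, 5.56 and 5.43 in the control kidneys. Its change of -0.26 ± 0.085 (SE; limma adjusted p = 0.0343) turned to 0.10 with quantile normalization. The other Ctsa probes changed by -0.20 (limma adjusted p = 0.255) and, at a dim level, by 0.44 (limma adjusted p = 0.266), so the probes did not share a direction. The Ctsa call was lost when any one of sham 1, sham 2, Clip 1, Clip 2 or Clip 3 was left out (limma adjusted p 0.0696 to 0.106) and with normexp (-0.43, limma adjusted p = 0.067).

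Ctsk, the collagen-degrading endopeptidase, was the dimmest member. It read -2.77, -2.70 and -2.66 in the Clip kidneys, against -2.99, -2.95 and -2.89 in the control kidneys. The arms did not overlap, but the change of 0.23 ± 0.09 did not pass (SE; limma adjusted p = 0.0601), and passed with slide as a block (limma adjusted p = 0.0286). In this comparison all 9 members were separated between the arms, where 58.6% of all genes were. Of these, 7 were higher in Clip (25.4% of all genes) and 2 lower (33.2%). Each of the 9 differences had the same sign on all 3 slides.

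In ClipR-14 kidneys, 12 days after the clip was removed, Ctss and Ctsk were above the control kidneys. They are 2 of 9 members, beside 1.46% of all genes called higher. No member was called lower, beside 0.372% of all genes. An unadjusted limma p under 0.05 was held by 3 of the 9, 2 higher and 1 lower (Ctsa). In either direction 3811 of all 17742 genes held one. The median change of the 9 was -0.10, against -0.01 over all genes. The 2 arms were apart for 4 of the 9 genes (Ctsk and Ctss higher, Ctsa and Ctsb lower), where 27.2% of all genes were, 13.6% in each direction. The dimmer second probe of Ctsb went the other way, by 0.17 (limma adjusted p = 0.434).

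Ctss read 2.47, 2.68 and 2.69 in the ClipR-14 kidneys, against 1.85, 1.77 and 1.84 in the control kidneys. The change was 0.79 ± 0.11 (SE; limma adjusted p = 0.0283), or 1.73-fold, and 0.62 to 0.91 within slides. Ctsk read -2.41, -2.19 and -2.34 in the ClipR-14 kidneys, against -2.99, -2.95 and -2.89 in the control kidneys. It was the dimmest member, with a control mean of -2.94, and the next dimmest was Ctsc at -0.20. The dim Ctsa probe had a control mean of -2.97. Ctsk changed by 0.63 ± 0.09 (SE; limma adjusted p = 0.0283), or 1.55-fold, and by 0.55 to 0.76 within slides. Each ClipR-14 array lay above each control array for both genes. Both calls were lost when sham 1, sham 2, ClipR-14 2 or ClipR-14 3 was left out, with limma adjusted p of 0.0585 to 0.114, and the Ctsk call also without Clip 1 (limma adjusted p = 0.0537). With normexp background correction the Ctsk change was 0.21 (limma adjusted p = 0.9999) and the Ctss change 0.82 (limma adjusted p = 0.146). With normexp 0% of all genes were called higher in this comparison.

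The other 7 members did not pass between ClipR-14 and control kidneys, with limma adjusted p of 0.18 to 0.563. Ctsc read -0.18, -0.01 and 0.66 in the ClipR-14 kidneys, against -0.02, -0.41 and -0.18 in the control kidneys. ClipR-14 3 was above the rest and the arms overlapped; the change was 0.36, with a 95% interval of -0.18 to 0.91. Ctsd read 5.62, 5.58 and 5.35 in the ClipR-14 kidneys, against 5.45, 5.53 and 4.77 in the control kidneys, a change of 0.26 with an interval of -0.23 to 0.76. The intervals of the remaining 5 were narrower: -0.42 to -0.03 for Ctsa, -0.30 to 0.11 for Ctsb, -0.41 to 0.07 for Ctsh, -0.33 to 0.10 for Ctsl and -0.41 to 0.09 for Ctsz. A p above the threshold does not show that these genes were back at the control level.

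Set against the Clip kidneys, the ClipR-14 kidneys were lower for 6 of the 9 genes (Ctsb, Ctsc, Ctsd, Ctsl, Ctss, Ctsz), beside 17.4% of all genes called lower. They were higher for Ctsh and Ctsk, 2 of 9, beside 23.5%, and Ctsa did not pass. The arms were apart for 8 of the 9, where 54.8% of all genes were: 2 higher, beside 31.4%, and 6 lower, beside 23.3%. The median change was -0.58, against 0.08 over all genes. This comparison shares the Clip arrays, and the one above the control arrays, with the first, so the 3 sets of changes are not independent.

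The fall was steepest for Ctsc, at -1.61 ± 0.24 (SE; limma adjusted p = 0.000929), for Ctss, at -1.19 ± 0.11 (SE; limma adjusted p = 9.93e-05), and for Ctsd, at -1.0 ± 0.22 (SE; limma adjusted p = 0.00627). Ctsz changed by -0.76 (limma adjusted p = 0.000774), Ctsb by -0.58 (limma adjusted p = 0.00117) and Ctsl by -0.46 (limma adjusted p = 0.00518). The dimmer second probe of Ctsb changed by -0.12 and did not pass (limma adjusted p = 0.471). With normexp the calls of Ctsb (-0.39, limma adjusted p = 0.136) and Ctsl (-0.27, limma adjusted p = 0.217) were lost. For all 6 the direction was the reverse of that in the Clip kidneys. Ctsk was higher in ClipR-14 than in Clip kidneys, by 0.40 ± 0.09 (SE; limma adjusted p = 0.00829), so that its order of levels was ClipR-14, then Clip, then control, of which the last pair did not pass. The order of ClipR-14 and Clip turned round with normexp background correction (-0.29). Ctsh was 0.35 higher in ClipR-14 than in Clip kidneys (limma adjusted p = 0.0256), a call lost without Clip 1, Clip 2, ClipR-14 1 or ClipR-14 3 (limma adjusted p 0.0666 to 0.0775) and with quantile normalization (0.03, limma adjusted p = 0.812).

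**Figure D2:**
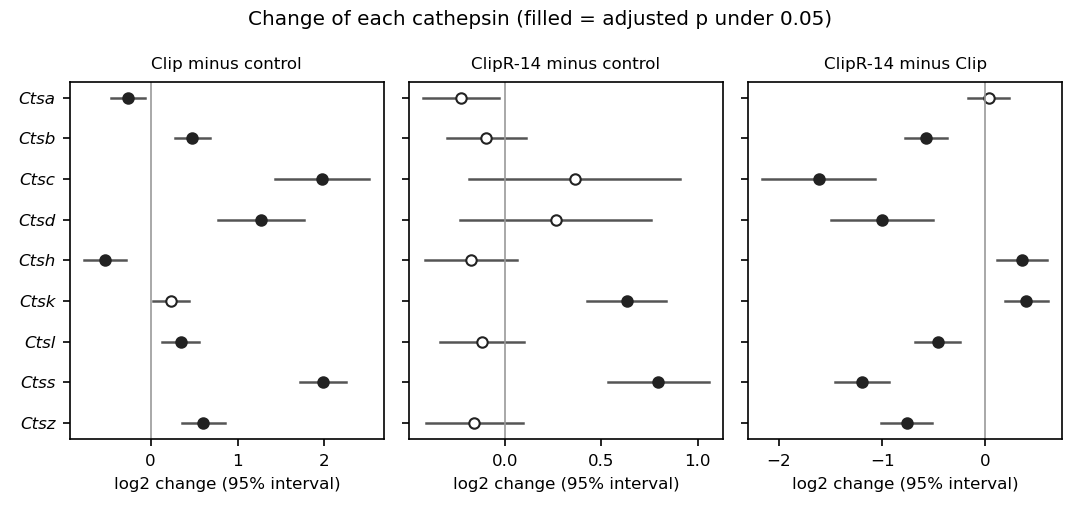
Log2 change of each cathepsin gene in the 3 comparisons with its 95% interval, from limma over 9 arrays. Ctss and Ctsc changed by 1.98 and 1.97 in Clip against control, and Ctsk, at 0.63 and 0.40, is the member called higher in both ClipR-14 comparisons. Filled points passed an adjusted p of 0.05, and the panels have their own scales.

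The 2 genes whose pattern over the 9 arrays was most like each member were sought among 11613 other genes by the root mean square (RMS) difference of levels from the control mean. The nearest to Ctss were Casp4, an inflammatory caspase (RMS 0.0993), and Vim, the intermediate filament vimentin (0.107). The nearest to Ctsc were Was, the actin regulator of blood cells (0.155), and Oasl1, an interferon-induced gene (0.176). For Ctsd they were Zwint and Reep4 (0.0851 and 0.0885), and for Ctsz Rfc5 and Tmem238 (0.0666 and 0.0697). For Ctsb they were Amot and Prps1 (0.0507 and 0.0516), for Ctsl Alg6 and Ttc27 (0.0575 and 0.0592), and for Ctsk Rgs3 and Tbc1d2 (0.0985 and 0.11). For Ctsa they were Prmt9 and Snx17 (0.0404 and 0.0406), and the nearest to Ctsh was Ppfia1 (0.0533). The measure follows the size of a change as well as its shape, so members that changed little have near neighbours.

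Among the cathepsins and relatives outside the 9, 7 were tested between Clip and control kidneys. Of these 2 rose and 3 fell, beside 21.4% and 27.5% of all genes. Ctsw, a protease of cytotoxic lymphocytes, rose 2.37-fold, and Lgmn, the asparaginyl endopeptidase that processes cathepsins, by 0.31. Ctsf fell by 1.23, Napsa, an aspartic protease of the proximal tubule, fell by 0.80 and Tinag, a tubular basement membrane protein, by 0.68. Of 12 cathepsin inhibitors tested, 6 rose and 1 fell, beside the same shares of all genes, with a median log2 change of 0.86. Csta1, a stefin, rose 5.10-fold, and Cstb, the ubiquitous stefin B, 3.1-fold. Stfa1 was not well above background in any control array and was at least 2.26-fold higher, and Cst7, an inhibitor of Ctsc and other cathepsins, at least 1.52-fold higher. Kng1, the kininogen that carries cystatin domains, fell by 0.78, and Cst3, cystatin C, changed by 0.20 (limma adjusted p = 0.224). In ClipR-14 against control kidneys 0 of the 12 passed in limma, with a median of 0.30. An unadjusted p under 0.05 was held by 5 of them and by 3811 of all 17742 genes.

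Among the other lysosomal hydrolases and the proton pump genes more members fell than rose in the Clip kidneys. Of 38 other lysosomal hydrolases, 4 rose and 19 fell (median log2 change -0.39), beside 21.4% and 27.5% of all genes. Their summed level was 433 to 480 in Clip, 564 to 636 in ClipR-14 and 657 to 695 in control arrays. Gla, alpha-galactosidase, rose by 1.11 and Pla2g15, a phospholipase, by 0.93, while Arsb, an arylsulfatase, changed by -1.41 and Ppt2, a thioesterase, by -1.22. Of 23 proton pump genes, 1 rose and 18 fell (median -0.47): Tcirg1, a subunit of osteoclasts and macrophages, rose by 0.82, and Atp6v1c2 and Atp6v1b1, subunits found in intercalated cells, changed by -1.97 and -1.81. Over 17 alternative settings of the processing, each array left out in turn included, 8 to 18 pump genes fell, with 8 under quantile normalization.

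Between Clip and control kidneys 21.4% of all genes were called higher and 27.5% lower, or 25.6% and 22.8% with quantile normalization. Of 15 genes that sort enzymes to the lysosome, 1 rose (Nagpa, 0.35) and 6 fell. Among these 6 were Igf2r, the larger mannose 6-phosphate receptor (-0.89), and Gnptg (-0.66), a subunit of the enzyme that makes the mannose 6-phosphate mark. Over the 17 alternatives 3 to 9 of the 15 fell, and quantile normalization gave 1 higher and 3 lower. Of 24 membrane proteins 4 rose and 7 fell, but 7 rose and 4 fell with quantile normalization. Laptm5 and Slc11a1, both of leukocytes, changed by 1.97 and 1.42, and Lamp2 and Mfsd8 by -0.68 and -0.65. Of 20 regulators of lysosome genes 0 rose and 9 fell, against 1 and 6 with quantile normalization and 5 to 13 falling over the 17 alternatives, and at their head were Mtor (-1.36) and Tfeb, the factor that binds the CLEAR element (-1.30). In ClipR-14 against control kidneys 0 of the 120 genes of these 5 groups were called by limma. An unadjusted p under 0.05 was held by 24 of them, 5 higher and 19 lower, and by 3811 of all 17742 genes.

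**Figure D3:**
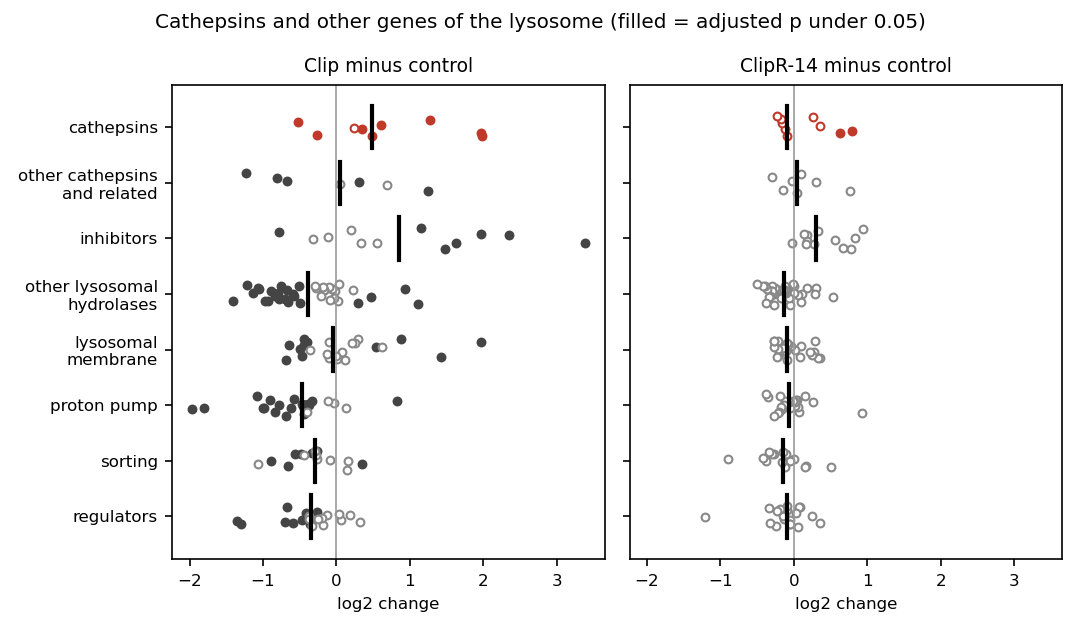
Log2 change of each gene of the cathepsins, their inhibitors and the other lysosome groups, one point per gene (filled where the adjusted p is under 0.05) and a bar at the median. The median in Clip against control is 0.48 for the 9 cathepsins, -0.39 for the 38 other hydrolases and -0.47 for the 23 proton pump genes.

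Markers of several cell types moved with these changes, and their part in the result was not tested. Of 22 macrophage markers tested, 20 were higher in Clip than control kidneys and Mertk was lower (-1.67), beside 21.4% and 27.5% of all genes. Their summed level, with the array's 75th percentile as 1, was 65.0 to 75.3 in Clip, 28.4 to 33.7 in ClipR-14 and 18.6 to 22.0 in control arrays. Trem2 rose 14.6-fold, and Ccr2, which was not well above background in any control array, was at least 3.91-fold higher. In ClipR-14 against control kidneys 10 of the 22 were higher, beside 1.46% of all genes. The count ran from 0 to 12 over the 17 alternatives. It was 0 with normexp, where 0% of all genes were called higher, so that setting does not single out these markers. Cd163, a marker of resident macrophages, was well above background on too few arrays to be tested.

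Of 12 fibroblast markers 10 were higher in Clip and 4 in ClipR-14 than in control kidneys, beside 21.4% and 1.46% of all genes. Col3a1 and Col1a1 stood at 11.3-fold and 10.1-fold in Clip. The ClipR-14 count ran from 0 to 6 over the alternatives. It was 0 with normexp and 1 with quantile normalization, beside 0% and 0.49% of all genes called higher. Their summed level was 248 to 324 in Clip, 94.8 to 116 in ClipR-14 and 57.5 to 73.9 in control arrays. Of 16 proximal tubule markers 15 were lower in Clip kidneys, beside 27.5% of all genes, and 0 were called by limma in ClipR-14 kidneys. There 0 also had an unadjusted p under 0.05, beside 3811 of all 17742 genes. Slc7a13 and Slc22a8, transporters of that segment, were 15.3-fold and 11.8-fold lower in Clip. The summed level of the 16 was 340 to 447 in Clip, 975 to 1263 in ClipR-14 and 1069 to 1382 in control arrays. All 13 markers of the other nephron segments could be tested, so defining markers of kidney were present. In Clip kidneys 12 of the 13 were lower, beside 27.5% of all genes. All 12 markers of tubular injury were higher in Clip and 5 in ClipR-14 kidneys, beside 21.4% and 1.46% of all genes. Their ClipR-14 count was 0 to 8 over the alternatives and 0 with normexp, beside 0% of all genes called higher.

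**Figure D4:**
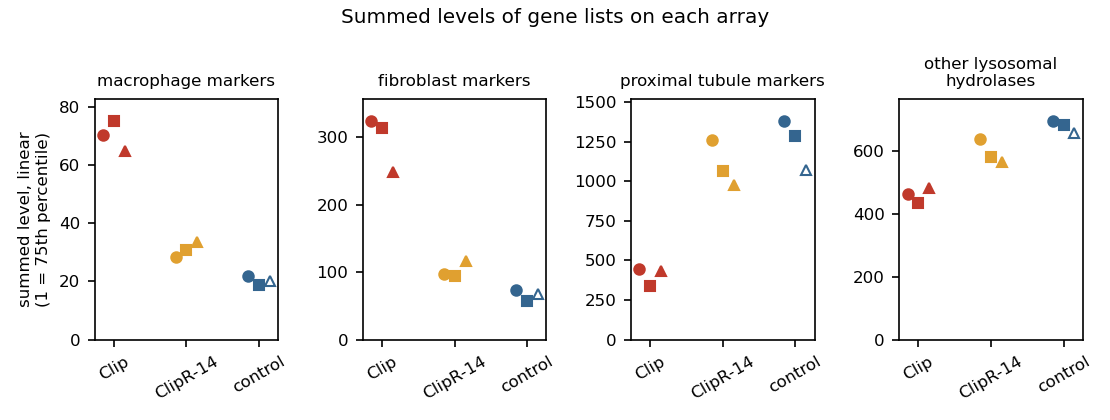
Summed level of 3 marker lists and of the other lysosomal hydrolases on each array, on a linear scale on which 1 is the array's 75th percentile, with Clip, ClipR-14 and control from left to right. Marker shapes are the 3 slides, the open triangle is the untreated kidney, and the macrophage sum lies at 65.0 to 75.3 in Clip and 18.6 to 22.0 in control arrays.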

How the data were processed

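The files hold 1-colour array data of 9 kidneys. Spot values in the deposited files are intensity readings, background-subtracted by Feature Extraction 10.7.3.1 (protocol GE1_107_Sep09, design 014868, grid build mm9), per the file headers. Other deposited columns are flags for spots above background, saturated or outlying. A deposited table of log2 values was not used: over 8065 rows the median correlation with the probe each row names was 0.0188.

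Intensities were divided by each array's 75th percentile (320 to 439) and taken to log2, without control spots and outlier flags. Repeated spots were averaged, probes well above background on at least 3 of 9 arrays were kept, and the brightest stood for a gene, named through RefSeq. Spots well above background were 52.5% to 58.0% per array, 0 were saturated, and the number of arrays limits the precision. limma 3.58.1 in R 4.3.3 was fitted to 3 arms over 9 arrays, with Benjamini-Hochberg adjustment over 17742 genes and a threshold of 0.05. The fit was tested on simulated data, with noise drawn separately for each array and 200 of 17742 genes changed in Clip. Log2 changes of size 1 were recovered in 76% and of size 2 in 93%, with 9 false calls. Smaller changes and shared slide deviations were not simulated. A gene at background in 1 arm has a fold given as a lower bound: the mean of the brighter arm against the lowest signal among probes well above background on each dimmer array. Each of the 3 slides held 1 array of each arm. The slide that held the untreated kidney was scanned on another date than the others. Samples that share a slide deviated together (correlation 0.161 to 0.282 over 9 pairs), and the main fit did not use slide. Differences within slides are therefore given for Ctss and Ctsd in Clip, and for Ctss and Ctsk in ClipR-14, against control. Slide as a block was an alternative.

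Genes were named by rule: all 9 cathepsins, the 2 genes most like each (1 for Ctsh, the other not being reported here), and the 2 largest rises and falls of each other list, while Cstb, Cst7, Cst3, Tinag, Cd74, H2-Ab1 and the markers at background were named after their values were seen. The members, lists and motifs were chosen with earlier results of these data known. Alternatives were normexp background correction (offset 50, on median signals because the files hold no mean signals), quantile normalization, slide or replicate number as a block, sham arrays alone as control, the mean of probes, no filter, 2 arms at a time, and leaving out each array.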

Additional observations from a re-analysis of the deposited data

How the results depend on the processing

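Of 153 member values under alternatives per comparison, 133 kept direction and side of the threshold in Clip against control, 133 in ClipR-14 against control and 142 in ClipR-14 against Clip. Ctsc, Ctsd and Ctss kept their Clip call in all 17 alternatives. Normexp moved the median of all genes in Clip against control to 0.10 and quantile normalization to -0.00. The cause of the following changes was not tested. Members higher in Clip than in control were 6, against 3 with normexp, and 5 to 6 with each array left out. Members lower in Clip were 2, beside 27.5% of all genes, against 0 with quantile normalization (22.8%). They were 1 with normexp (17.5%), the replicate block (27.3%), the mean of probes (27.8%), no filter (13.7%) or 2 arms alone (25.9%). Leaving out each array gave 1 to 2, beside 22.5% to 27.4%. Members higher in ClipR-14 than in control were 2, against 0 with normexp, the replicate block, no filter or 2 arms alone. They were 0 to 2 with each array left out (0 without sham 1, sham 2, ClipR-14 2 or ClipR-14 3, 1 without Clip 1). All genes called higher were 1.46%, against 0% with normexp or 2 arms alone, 0.896% with the replicate block and 0.0341% with no filter. With each array left out they were 0.0113% to 1.49%. Over the 17 alternatives the Ctss change stayed at 0.76 to 0.86 and the Ctsk change at 0.21 to 0.68. Members higher in ClipR-14 than in Clip were 2, beside 23.5% of all genes, against 1 with normexp (12.8%) or quantile normalization (19.9%). Leaving out each array gave 1 to 2, beside 18.3% to 24.7%. Members lower in ClipR-14 than in Clip were 6, beside 17.4% of all genes, against 4 with normexp (10.6%). Leaving out each array gave 6, beside 13.9% to 18.4%.

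Directions turned with quantile normalization for Ctsa in Clip against control (0.10), Ctsb and Ctsl in ClipR-14 against control (0.042 and 0.035) and Ctsa in ClipR-14 against Clip (-0.18). With the mean of probes they turned for Ctsb in ClipR-14 against control (0.039) and Ctsa in ClipR-14 against Clip (-0.13), which was -0.0018 to 0.082 with each array left out (-0.0018 without ClipR-14 replicate 2). With normexp Ctsk in ClipR-14 against Clip was -0.29. The labels give replicate numbers, but same-numbered samples of different arms correlated at -0.209 to 0.269 (7 of 9 pairs over 0.1). Those 7 pairs also share a slide (0.161 to 0.269), and the other 2, of the untreated kidney, do not (-0.209 each), so number and slide cannot be told apart in them. With the replicate block Ctss was 0.77 and Ctsk 0.61 in ClipR-14 against control (limma adjusted p = 0.0505 and 0.0501), and Ctsa was -0.24 in Clip against control (limma adjusted p = 0.072); it changed no other member's call. With slide as a block, which pairs all 9 arrays, the Ctss and Ctsk calls held (limma adjusted p = 0.0311 and 0.0269).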

Other observations

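Of 12 genes for substrates and partners of cathepsins in immune cells, 7 were higher in Clip kidneys and 0 lower, beside 21.4% and 27.5% of all genes. Their median log2 change from control was 0.95, and with normexp 4 were higher, beside 14.2%. H2-DMa, which loads peptides onto MHC class II, changed by 2.20, H2-Ab1, an MHC class II chain, by 1.47 and Cd74, the invariant chain that Ctss trims, by 1.08. Gzma, a granzyme that Ctsc activates, was not well above background in any control array and was at least 1.54-fold higher. In ClipR-14 against control kidneys 0 of the 12 passed in limma, with a median of 0.42. An unadjusted p under 0.05 was held by 5 of them and by 3811 of all 17742 genes. Of 7 T and NK cell markers 5 were higher in Clip than in control kidneys, beside 21.4% of all genes. In ClipR-14 against control kidneys 1 was higher (0 to 2 over the alternatives), beside 1.46%.

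Of 6 neutrophil markers 1 was higher in Clip than in control kidneys, beside 21.4% of all genes. Ngp, Camp and Mmp8 were not well above background on any array. Of 5 dendritic cell markers 2 were higher in Clip kidneys, beside the same 21.4%, and Flt3 and Cd209a were not well above background on any array. Of 9 endothelial markers 1 was higher and 3 were lower in Clip kidneys, beside 21.4% and 27.5% of all genes. With quantile normalization 2 were higher and 2 lower, beside 25.6% and 22.8%.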
